A study of Mus musculus with 6 samples.

Results

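Retinal ganglion cells (RGCs), the output neurons of the retina, are told from the other retinal neurons by a small set of transcription factors, and 9 of these were followed here in RNA-Seq of RGC-enriched mouse retinal cells. The members were given by name: the POU-homeodomain factors Pou4f1, Pou4f2 and Pou4f3, the LIM-homeodomain factor Isl2, the T-box factors Eomes and Tbr1, the chromatin organizer Satb1, the forkhead factor Foxp2 and the Iroquois factor Irx3. They were found by symbol among 32371 Ensembl genes, and all 9 passed edgeR's filter on low counts, which kept 18138 genes. Adult C57BL/6J mice received AAV2-GFP (control) or AAV2-Ezh2-Y726D in the vitreous, and both groups had an optic nerve crush 2 weeks later. Ezh2-Y726D is a catalytically dead form of the H3K27 methyltransferase Ezh2. Cells were collected 3 days after the crush by FACS for CD90.2, the product of Thy1, so that neither uninjured nor uninjected retinas were part of the comparison and untransduced cells were not removed. Each group had 3 libraries, numbered in the labels without stating whether they came from separate mice, so that P values measure the spread between these libraries.

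In development, the bHLH factor Atoh7 makes progenitors competent for the RGC fate, and Pou4f2 and Isl1 then switch on the programs of differentiation and axon growth. In the adult retina Pou4f1 and Pou4f2 mark large overlapping RGC populations and Pou4f3 a smaller one within them, and the other members mark narrower RGC types: Isl2 contralaterally projecting cells, Eomes the melanopsin cells that sense light themselves, Tbr1 cells with dendrites in the OFF layers, Satb1 direction-selective cells and Foxp2 the F-RGCs. Several of these factors are also used elsewhere, Satb1 and Eomes by T and NK cells and Foxp2 by amacrine cells.

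Library totals ran from 9333244 to 23782520 counts. In GFP replicates 2 and 3, 50.9% and 52.2% of all reads counted fell on the rRNA gene CT010467.1 (2.55% to 16.1% in the others), and these held the fewest counts of every member. Values are CPM of TMM-scaled libraries. Ezh2 was at 22.7, 23.9 and 26.4 CPM in GFP and at 65.2, 65.6 and 65.2 CPM in Ezh2-Y726D libraries, counting vector and endogenous transcripts together. Markers of RGCs were present in all libraries, but the rod, Müller glia, amacrine, bipolar and endothelial lists summed to more in every library. The microglia and macrophage list did so in all but Ezh2-Y726D replicate 1. The endothelial sum came mostly from Kdr, at 763 ± 19.5 CPM in GFP and 696 ± 25.3 CPM in Ezh2-Y726D (SD, n = 3). Each other endothelial marker averaged 8.24 CPM or less in either group. The 10 RGC markers, Pou4f1 and Pou4f2 among them, summed to between 509 and 556 CPM, against 5582 to 6312 CPM for 7 rod markers, 8408 to 9897 CPM for 7 Müller glia markers and 1668 to 2635 CPM for 11 amacrine markers.

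**Figure D1:**
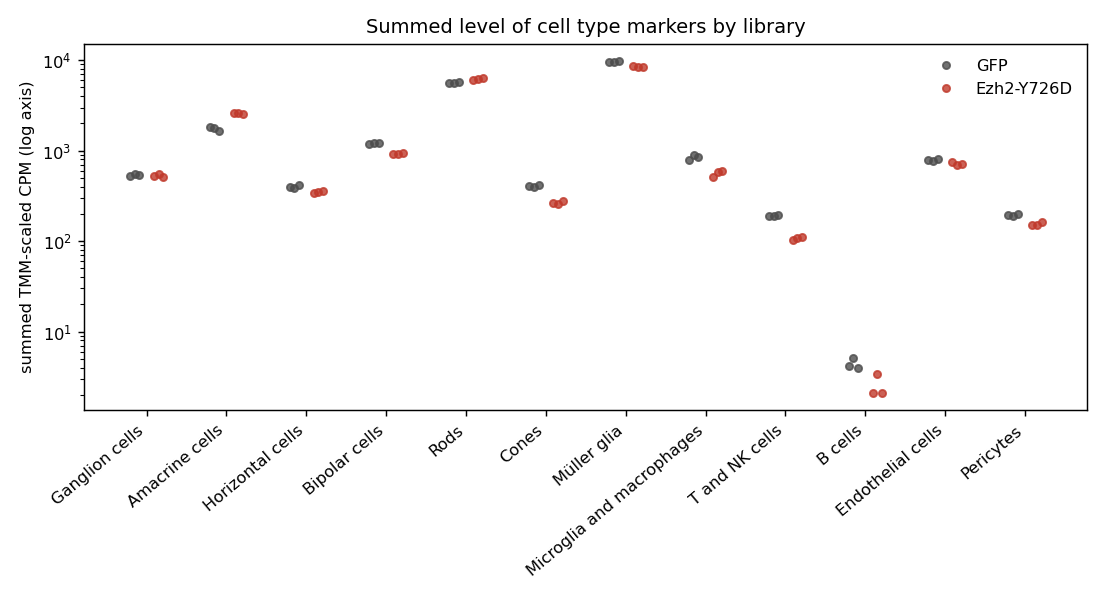
Summed TMM-scaled CPM (log axis) of fixed marker lists for 12 cell types, with a point for each of the 3 GFP and 3 Ezh2-Y726D libraries. RGC markers sat between 509 and 556 CPM in both groups, below the rod, Müller glia and amacrine lists, while the amacrine and rod lists were higher and the other 9 lists lower in Ezh2-Y726D, each without overlap between the groups.

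Of the 9 members, Pou4f1 and Foxp2 were higher in Ezh2-Y726D than in GFP libraries (edgeR, adjusted P below 0.05), no member was lower, and 7 were not called. The background for this count is that 13.9% of all tested genes were called higher and 13.6% lower. Read against these shares, 2 of 9 is no result about the members as a list. At an unadjusted P under 0.05 in edgeR, 1 member (Pou4f3) was lower, beside 17.8% of all tested genes. DESeq2 called 1 member higher (Pou4f1) and 0 lower, beside 10.4% and 9.52% of the genes it tested. Estimated changes went both ways, with 4 members above and 5 below 0 on the log2 scale, and with library totals in place of TMM, which shift the median gene to 0.49, those 5 were above 0 too. Their median log2 fold change was -0.10, beside 0.00 over all genes tested.

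**Figure D2:**
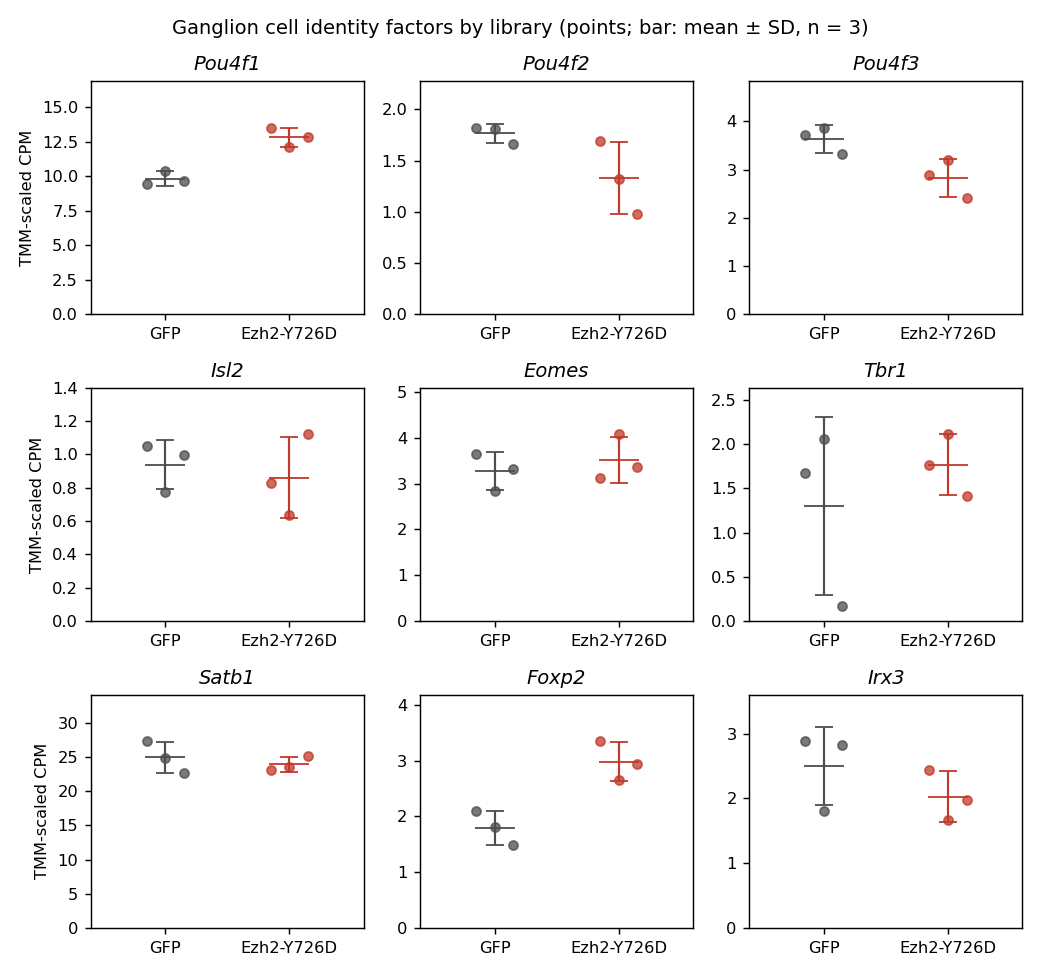
TMM-scaled CPM of each member in every library (points), with the mean and SD of 3 libraries, for GFP and Ezh2-Y726D; each y axis starts at 0 and has its own scale. The groups do not overlap for Pou4f1, Pou4f3 and Foxp2, and Tbr1 has 1 GFP library near 0.

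Levels between genes were compared as CPM per kilobase of annotated exon. In GFP libraries Pou4f1 was the highest member at 2.10 ± 0.118 per kb, followed by Pou4f3 at 1.52 ± 0.119 and Satb1 at 1.31 ± 0.121 (SD, n = 3). The ranges of Pou4f3 and Satb1 overlapped. Irx3 (0.905 ± 0.218) and Eomes (0.786 ± 0.0981) came next and overlapped, and Pou4f2 (0.550 ± 0.0283) lay below them. Isl2 (0.429 ± 0.0671), Tbr1 (0.238 ± 0.183) and Foxp2 (0.110 ± 0.0187) were the lowest, each overlapping its neighbour. In Ezh2-Y726D libraries Pou4f1 was again the highest, at 2.75 ± 0.153 per kb, and Foxp2 the lowest, at 0.182 ± 0.0214 (SD, n = 3). There Satb1 (1.26 ± 0.0594) and Pou4f3 (1.18 ± 0.164) overlapped, as did Eomes (0.846 ± 0.119) and Irx3 (0.733 ± 0.142), and as did Pou4f2 (0.416 ± 0.111), Isl2 (0.393 ± 0.111) and Tbr1 (0.322 ± 0.0623) in that order. Satb1 and Foxp2 have long annotated exons, 19.0 and 16.3 kb over all isoforms, which lowers their values per kb. Without the length, Satb1 had the most counts and was the only member above the median tested gene, at percentile 61.4. Pou4f1 was at percentile 44.4, and Isl2 was the lowest at percentile 10.1.

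The Pou4f factors bind DNA through a POU-specific domain and a homeodomain, and they share targets. Pou4f1 (ENSMUSG00000048349, GRCm38 chromosome 14, 104461676 to 104467999, minus strand) supports dendrite shape and survival of RGCs. It was at 9.40, 10.4 and 9.62 CPM in GFP and at 13.5, 12.1 and 12.8 CPM in Ezh2-Y726D libraries. Every Ezh2-Y726D library lay above every GFP library. The log2 fold change was 0.41 (SE 0.0964, 95% interval 0.21 to 0.61, adjusted P = 0.00151, edgeR), a 1.33-fold difference below the 1.5-fold threshold that the study set for DEGs. Without GFP replicate 1, the deepest control, it was 0.35 with an adjusted P of 0.058 in edgeR.

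Pou4f2 (ENSMUSG00000031688, chromosome 8, 78433010 to 78436645, minus strand), the factor most needed for RGC differentiation, was far scarcer. Its libraries held 52, 14 and 10 counts in GFP and 45, 27 and 29 in Ezh2-Y726D, or 1.82, 1.81 and 1.66 CPM against 1.69, 1.32 and 0.983 CPM. The groups overlapped narrowly, with Ezh2-Y726D replicate 1 inside the GFP range. The log2 fold change of -0.43 (SE 0.258) did not pass the test (adjusted P = 0.239, edgeR), and its 95% interval ran from a 0.513-fold to a 1.07-fold level.

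Pou4f3 (ENSMUSG00000024497, chromosome 18, 42394539 to 42397249, plus strand), which in the retina marks a restricted RGC population, held more counts than Pou4f2 in every library. It was at 3.72, 3.87 and 3.32 CPM in GFP and at 2.89, 3.19 and 2.41 CPM in Ezh2-Y726D. All Ezh2-Y726D libraries lay below all GFP libraries. Its log2 fold change was -0.40 (SE 0.175, 95% interval -0.76 to -0.04), which was not called after adjustment (adjusted P = 0.0977, edgeR). Groups did not overlap, in the same sense, for 3 members, Pou4f1 and Foxp2 upward and Pou4f3 downward. Among all tested genes, 19.7% did so upward and 18.9% downward.

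**Figure D3:**
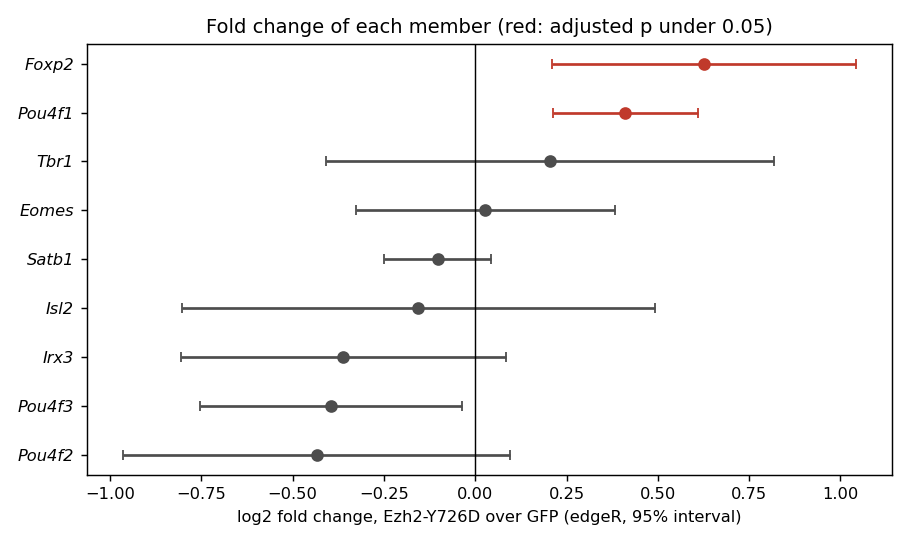
log2 fold change of each member (Ezh2-Y726D over GFP) with its 95% interval from the edgeR fit, ordered by size; red marks an adjusted P under 0.05. Only the red points, Foxp2 and Pou4f1, passed the adjusted threshold, the interval of Pou4f3 lies below 0 without passing it, and those of the other members span 0.

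The makeup of the family was compared within each library. A ratio of counts within a library does not depend on how libraries are scaled to each other. Pou4f1 made up 62.9%, 64.8% and 65.9% of the Pou4f counts in GFP and 74.7%, 72.9% and 79.1% in Ezh2-Y726D libraries. There were 5.15, 5.79 and 5.80 counts of Pou4f1 for each count of Pou4f2 in GFP, and 8.0, 9.15 and 13.1 in Ezh2-Y726D. The groups did not overlap, and the mean log2 ratio was 0.82 higher in Ezh2-Y726D (exact permutation test, 2-sided P = 0.1, adjusted P = 0.2 over 8 ratios). As 3 libraries against 3 cannot give a P under 0.1, none of the 8 ratios could pass. Pou4f1 was itself called higher, which raises its ratio to any unchanged gene. Against the summed counts of Pou4f1 and Pou4f2, mostly those of Pou4f1, 53.2% of the 18136 other tested genes separated the groups downward. Read beside that share, the separation is no result about the makeup of the family.

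The sequences upstream of Pou4f1 and Pou4f2 are shown because the ratio above is that of these paralogs. Each is the 250 bases before the RefSeq start (GRCm38.p6), 5′ to 3′ on the gene's minus strand, with capitals for E-boxes (CANNTG, both strands), the sites of bHLH factors such as Atoh7.
Pou4f1, chr14:104468000-104468249: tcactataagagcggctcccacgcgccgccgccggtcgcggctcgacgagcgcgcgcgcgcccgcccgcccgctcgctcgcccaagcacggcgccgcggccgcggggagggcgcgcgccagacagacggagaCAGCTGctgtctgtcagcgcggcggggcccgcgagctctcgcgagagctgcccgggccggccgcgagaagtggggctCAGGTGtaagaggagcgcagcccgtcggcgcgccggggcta
Pou4f2, chr8:78436648-78436897: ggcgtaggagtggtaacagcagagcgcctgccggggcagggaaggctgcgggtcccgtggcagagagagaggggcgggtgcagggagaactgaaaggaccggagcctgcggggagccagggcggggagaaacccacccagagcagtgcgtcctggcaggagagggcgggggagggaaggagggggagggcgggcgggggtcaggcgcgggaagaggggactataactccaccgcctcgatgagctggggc
The Pou4f1 window is 78.0% GC with 47 CpGs and 2 E-boxes, and the Pou4f2 window is 70.8% GC with 17 CpGs and no E-box. The median over 32851 RefSeq windows of this length was 52.4% GC and 6 CpGs, and 66.2% of them held an E-box. Neither window held the homeodomain core TAATTA or the T-box half-site AGGTGTGA, searched on both strands, which occur in 4.84% and 1.12% of all windows. Of the 9 members, 7 had an entry, and among these TAATTA was found only upstream of Tbr1.

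Isl2 (ENSMUSG00000032318, chromosome 9, 55538672 to 55546180, plus strand), which represses the ipsilateral program in contralaterally projecting RGCs, was the least counted member. Its libraries held 30, 6 and 6 counts in GFP and 22, 13 and 33 in Ezh2-Y726D, or 1.05, 0.774 and 0.995 against 0.827, 0.637 and 1.12 CPM. The groups overlapped, the log2 fold change was -0.16 (SE 0.316, adjusted P = 0.782, edgeR), and at this depth the 95% interval still allowed a 0.573-fold to a 1.41-fold level. Its LIM-homeodomain relative Isl1, a partner of Pou4f2 that ON bipolar and starburst amacrine cells also use, fell from 49.2 ± 1.76 to 33.3 ± 2.19 CPM (SD, n = 3), a log2 fold change of -0.58 (SE 0.0607, adjusted P = 1.45e-08, edgeR). Bipolar markers moved with Isl1. Of 9 bipolar markers, 8 were lower and 1 (Prkca) was higher, and their sum went from 1184 to 1203 CPM in GFP to 927 to 946 CPM in Ezh2-Y726D. Their part in the fall of Isl1 was not tested.

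Eomes (ENSMUSG00000032446, chromosome 9, 118478212 to 118486132, plus strand) maintains the melanopsin RGCs. It was at 3.65, 2.84 and 3.32 CPM in GFP and at 3.12, 4.07 and 3.36 CPM in Ezh2-Y726D. The groups were interleaved, with a log2 fold change of 0.03 (SE 0.173, adjusted P = 0.939, edgeR) and a 95% interval from a 0.797-fold to a 1.30-fold level. Of 4 listed genes of the melanopsin cells, singled out with their values known, Tbx20 and Adcyap1 were lower and Opn4 and Nmb (0.52, adjusted P = 0.299, edgeR) were not called, where 13.6% of all tested genes were lower. Tbx20, a T-box factor of these cells, fell from 2.26 ± 0.232 to 1.33 ± 0.158 CPM (log2 fold change -0.68, SE 0.234, adjusted P = 0.0285, edgeR), and Adcyap1, which encodes the neuropeptide PACAP, fell from 16.9 ± 1.68 to 11.5 ± 1.45 CPM (log2 fold change -0.52, SE 0.0998, adjusted P = 1.76e-04; SD, n = 3). Opn4, the gene of melanopsin itself, was at 2.91, 1.81 and 1.33 CPM in GFP and at 1.58, 2.01 and 1.63 CPM in Ezh2-Y726D, with overlap (adjusted P = 0.153, edgeR). Eomes shares 2.84% of its exonic bases with Gm33460 on the other strand, and the part of Gm33460 in its counts was not tested.

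Tbr1 (ENSMUSG00000035033, chromosome 2, 61802930 to 61814114, plus strand) directs RGC dendrites to OFF layers. Its libraries held 48, 16 and 1 counts in GFP and 47, 43 and 42 in Ezh2-Y726D, or 1.68, 2.06 and 0.166 CPM against 1.77, 2.11 and 1.42 CPM. GFP replicate 3 stood apart, where the mean level of the other GFP libraries would have given 11.3 counts. The log2 fold change was 0.20 (SE 0.300, 95% interval -0.41 to 0.82, adjusted P = 0.686, edgeR), and it was -0.04 without that library. Of 3 listed genes tied to Tbr1 in RGCs, also singled out with their values known, 1 was called. Sorcs3, a sorting receptor, rose from 8.37 ± 1.61 to 14.9 ± 0.727 CPM (SD, n = 3; log2 fold change 0.81, adjusted P = 3.86e-07, edgeR), while the cadherin Cdh8 (0.01) and the J-RGC adhesion molecule Jam2 (-0.08) were not called.

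Satb1 (ENSMUSG00000023927, chromosome 17, 51736187 to 51833290, minus strand), a nuclear protein that folds chromatin and sets the dendrite layers of direction-selective RGCs, was the best measured member. It held 779, 192 and 137 counts in GFP and 614, 482 and 745 in Ezh2-Y726D. These are 27.3, 24.8 and 22.7 against 23.1, 23.6 and 25.2 CPM, with all Ezh2-Y726D libraries inside the GFP range. The log2 fold change of -0.10 (SE 0.0713, adjusted P = 0.328, edgeR) had a 95% interval from a 0.842-fold to a 1.03-fold level. Satb1 shares 0.82% of its exonic bases with annotated genes on its own strand and 0.673% on the other (Gm36931 and Gm6934). The part of these genes in its counts was not tested. Satb1 is also a T cell factor, and T cells carry CD90.2. The 15 T and NK cell markers summed to between 189 and 192 CPM in GFP and between 104 and 112 CPM in Ezh2-Y726D, 14 of them lower and none at 0 in all libraries, and their part in the levels of Satb1 and Eomes was not tested.

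Genes of the Satb1 cells differed in direction. Cntn5, the contactin that Satb1 controls in these cells, fell from 24.8 ± 1.47 to 19.7 ± 1.26 CPM (log2 fold change -0.33, SE 0.0726, adjusted P = 7.4e-04, edgeR). Of 6 listed genes of direction-selective RGCs, picked out here after their values were seen, 4 rose, where 13.9% of all tested genes and 13 of the 34 tested genes of their list did, so that nothing is read from the count: Cartpt, a neuropeptide precursor, by 0.77, the metalloproteinase Mmp17 by 0.66, the cadherin Cdh6 by 0.78 and the membrane collagen Col25a1 by 1.43 on the log2 scale. Fstl4 was not called (0.33, adjusted P = 0.0639, edgeR), and Trhr did not pass the filter. All 10 tested amacrine markers were higher as well, and their part in these rises was not tested. Col25a1 went from 2.53, 3.74 and 2.99 CPM in GFP to 7.89, 7.01 and 8.0 CPM in Ezh2-Y726D (SE 0.152, adjusted P = 2.02e-08, edgeR).

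Foxp2 (ENSMUSG00000029563, chromosome 6, 14901349 to 15441977, plus strand), the forkhead repressor that names the F-RGCs, had the largest rise of the members. Its libraries held 60, 14 and 9 counts in GFP and 89, 54 and 87 in Ezh2-Y726D, or 2.10, 1.81 and 1.49 against 3.35, 2.65 and 2.95 CPM. The groups did not overlap. The log2 fold change was 0.63 (SE 0.203, 95% interval 0.21 to 1.04, adjusted P = 0.0203, edgeR), a 1.54-fold difference, so that Foxp2 was the 1 member that also passed 1.5-fold. Of all tested genes, 2.52% were DEGs in this direction. DESeq2 gave 0.67 with an adjusted P of 0.133. Without GFP replicate 3 edgeR gave 0.56 (adjusted P = 0.0502) and without Ezh2-Y726D replicate 1 it gave 0.54 (adjusted P = 0.0827), both below 1.5-fold. The paralogs Foxp1, which F-RGC types also use, and Foxp4 were not called, with log2 fold changes of -0.11 and 0.00.

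The amacrine list moved in the same direction as Pou4f1 and Foxp2. Of its 11 markers 10 were tested, and all 10 were higher (median log2 fold change 0.53). Their sum went from between 1668 and 1823 CPM in GFP to between 2549 and 2635 CPM in Ezh2-Y726D, and Chat was the marker left untested, at 0 to 19 counts in a library. The part of amacrine RNA in the rises of Foxp2 and Pou4f1 was not tested.

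Irx3 (ENSMUSG00000031734, chromosome 8, 91798525 to 91802067, minus strand), an Iroquois homeodomain factor, was at 2.88, 1.81 and 2.82 CPM in GFP and at 2.44, 1.67 and 1.97 CPM in Ezh2-Y726D. The groups overlapped, with GFP replicate 2 low, and the log2 fold change of -0.36 (SE 0.217, adjusted P = 0.244, edgeR) was not called. Its 95% interval ran from a 0.573-fold to a 1.06-fold level. Irx3 lies in 1 gene cluster with Irx5 and Irx6, which bipolar cells also use. Irx6 fell from 19.9 ± 2.01 to 10.4 ± 0.353 CPM (SD, n = 3; log2 fold change -0.88, SE 0.0883, adjusted P = 5.9e-09, edgeR), and Irx5 was not called (-0.20, adjusted P = 0.143, edgeR). The bipolar markers, 8 of 9 lower, moved with Irx6, and their part in its fall was not tested. Of the other cluster, Irx2 and Irx4 were under 2 CPM and not called, and Irx1 did not pass the filter. Irx3 shares 4.49% of its exonic bases with the antisense gene Irx3os, whose mean was 0.0117 CPM in GFP and 0.121 CPM in Ezh2-Y726D.

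**Figure D4:**
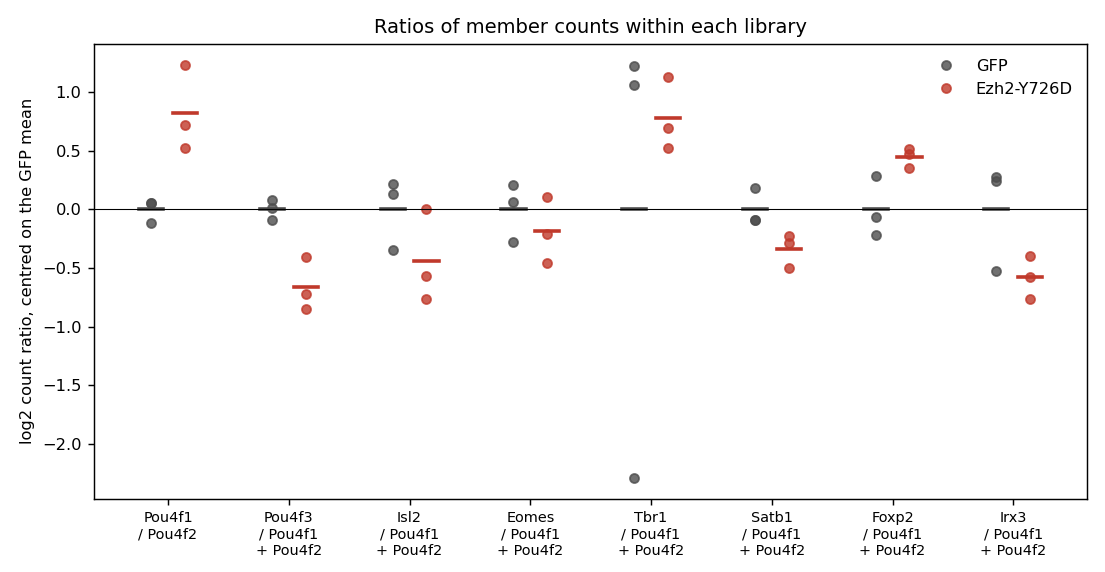
log2 ratio of member counts within each library, centred on the mean of the GFP libraries, for Pou4f1 over Pou4f2 and for every other member over the sum of Pou4f1 and Pou4f2; points are libraries and lines are group means. The groups do not overlap for Pou4f1 over Pou4f2 and Foxp2 (higher in Ezh2-Y726D) or for Pou4f3 and Satb1 (lower).

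Set against the summed counts of Pou4f1 and Pou4f2, 3 of the other 7 members gave ratios that separated the groups. The ratio of Pou4f3 was 0.331, 0.316 and 0.294 in GFP and 0.190, 0.237 and 0.174 in Ezh2-Y726D, and that of Satb1 was 2.43, 2.02 and 2.01 against 1.52, 1.76 and 1.83. The ratio of Foxp2 was 0.188, 0.147 and 0.132 in GFP and 0.220, 0.197 and 0.213 in Ezh2-Y726D. They did not overlap between the groups, at the smallest P the design allows (exact permutation test, P = 0.1, adjusted P = 0.2). The ratios of Isl2, Eomes, Tbr1 and Irx3 overlapped (exact permutation P between 0.2 and 0.9). Most of the counts in the denominator are from Pou4f1, so its rise lowers every ratio, and among the 18136 other tested genes 53.2% separated the groups downward and 3.01% upward. Read against these shares, the lower ratios of Pou4f3 and Satb1 are no result about these genes.

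Whether the level of the members followed the amount of RGC RNA was read from 16 genes of all RGCs. In bulk libraries, fewer cells of a type and less RNA per cell cannot be told apart. Of the 16, 5 were higher, 1 was lower and 10 were not called, beside 13.9% higher and 13.6% lower among all tested genes, with a median log2 fold change of 0.02. Slc17a6, the vesicular glutamate transporter of RGCs, was at 80.6 ± 3.82 and 81.5 ± 3.92 CPM, and the synuclein Sncg at 29.4 ± 1.31 and 29.2 ± 0.417 CPM (SD, n = 3). Rbpms, an RNA-binding protein specific to RGCs in the retina, was at 15.4 ± 1.42 and 13.4 ± 0.958 CPM and not called (adjusted P = 0.0987, edgeR). The rises were led by the RNA-binding protein Elavl4 (0.47), the nicotinic receptor subunit Chrnb3 (0.41) and the neurofilament Ina (0.27). Thy1, the gene of the sort antigen, was also higher (0.13, adjusted P = 0.0315, edgeR). All 10 tested amacrine markers were higher as well, and their part in the rises among the 16 genes was not tested. The fall among the 16 was that of the secreted neuritin Nrn1 (-0.22). With libraries scaled to 7 of these genes in place of TMM, the log2 fold changes of Pou4f1 and Foxp2 were 0.48 and 0.70, and both were called. These 7 (Rbpms, Slc17a6, Sncg, Nefl, Nefm, Nrn1 and Tubb3) include the gene that fell and none of the 5 that rose, and scaling to them raised the median log2 fold change of the tested genes to 0.07.

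Of 22 transcription factors and cofactors of RGC specification, 17 were tested, of which 6 were higher, 2 lower and 9 not called. Atoh7, the competence factor of the RGC lineage, was at 0.150 to 0.387 CPM and was not tested. Barhl2, a homeodomain factor of RGCs and amacrine cells, rose from 8.11 ± 0.593 to 12.5 ± 0.801 CPM (SD, n = 3; log2 fold change 0.66, adjusted P = 9.23e-06, edgeR). Ebf3, a helix-loop-helix factor of the same cells, rose by 0.52, and the neuronal zinc finger factor Myt1l by 0.46. Ebf1 and Ebf4 rose by 0.29 and 0.37. The amacrine markers, 10 of 10 tested higher, moved with Barhl2 and Ebf3, and their part was not tested. Beside Isl1, the bHLH factor Neurod1, which photoreceptors and amacrine cells also use, was lower (-0.19). Sox4 and Sox11, which act with Atoh7 upstream of Pou4f2, were not called (0.11 and -0.10).

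**Figure D5:**
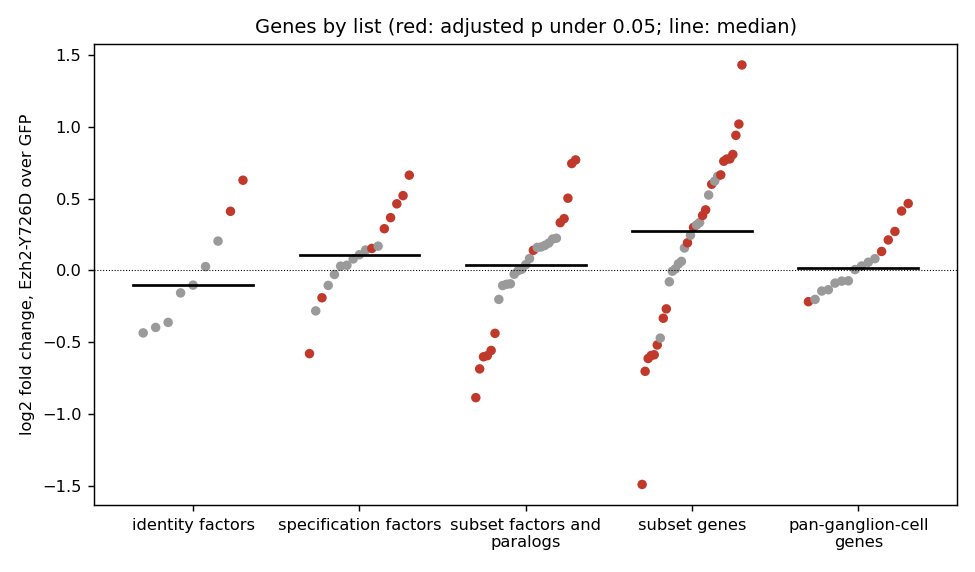
log2 fold change (Ezh2-Y726D over GFP) of every tested gene in the 9 identity factors, 3 lists of related genes and the list of genes of all RGCs; red marks an adjusted P under 0.05 and the line is the list's median. The medians of the identity factors (-0.10) and the genes of all RGCs (0.02) lie near 0, and the list of subset genes has the widest spread and a median of 0.27.

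Of 28 factors of RGC subsets or paralogs of the members, 27 were tested, and 6 were higher, 6 lower and 15 not called (median log2 fold change 0.04). The largest rises were those of the zinc finger factor Bcl11a (0.77), the AP-2 factor Tfap2d (0.74) and the homeodomain factor Zfhx3 (0.50). The largest falls were those of Irx6, Tbx20 and Lmo2 (-0.60), a LIM-only cofactor that endothelial and blood cells also use. Runx1 (-0.56), a factor of blood cells as well, was also lower. Of the microglia and macrophage markers, 7 of 9 were lower, with sums of 794 to 887 CPM in GFP and 506 to 591 CPM in Ezh2-Y726D; their part was not tested. Of 36 further genes of RGC subsets, 34 were tested, of which 13 were higher, 8 lower and 13 not called, with a median of 0.27. Over these 3 lists 25 genes were higher and 16 lower, beside 13.9% and 13.6% of all tested genes, and with library totals 2 were higher and 0 lower. After Col25a1, the largest rises were those of the neuropeptide precursors Tac1 (1.02) and Gal (0.94). Amacrine cells also use Tac1, and the part of the higher amacrine markers in its rise was not tested. The largest falls were those of Spp1 (-1.49), an osteopontin gene of alpha RGCs and of phagocytes, the phosphodiesterase Pde1a (-0.70) and the potassium channel subunit Kcng4 (-0.61), a marker of alpha RGCs that bipolar cells also express. The list also holds Slc17a7, which is mainly a gene of photoreceptors and bipolar cells and was lower (-0.27).

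Across the 6 libraries, the genes with the profile most like that of Pou4f1 were Nmnat2, an axon maintenance enzyme, Minar2 and the fatty acid elongase Elovl6. The root mean square differences of their centred log2 CPM from that of Pou4f1 were 0.0357, 0.0402 and 0.0419, the smallest among 10489 genes with a mean of at least 10 CPM. Their log2 fold changes were 0.43, 0.37 and 0.36.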

How the data were processed

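The authors deposited raw counts of reads per Ensembl gene for 6 libraries, 3 GFP and 3 Ezh2-Y726D from stranded libraries of total RNA. The submitters' processing notes list STAR 2.7.0d and GRCm38. The counting tool, annotation and strand setting are not given in the sources used here, so overlap with genes on either strand is reported. Symbols were found for 32325 of 32371 identifiers, and coordinates and exon lengths were taken from GENCODE vM21 (GRCm38), which may differ from the authors' annotation. The members and gene lists were chosen with earlier results of these data known.

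Counts were scaled with TMM and compared with the quasi-likelihood test of edgeR 4.0.16 in R 4.3.3, with filterByExpr (at least 10 counts, total of 15) and Benjamini-Hochberg adjustment over 18138 genes. A gene was called at an adjusted P under 0.05. SEs were obtained from the log2 fold change and the F statistic (their ratio after taking the root of F), and intervals use the total degrees of freedom of the fit. The fit weights libraries by depth, so that a fold change can differ from the ratio of mean CPM. The common biological coefficient of variation was 0.0442. Of each list, the called genes with the 3 largest rises and falls and genes tied to a member were named. Further gene names were added after their values were seen (Ebf1, Ebf4, Runx1 and Slc17a7 among them). Some listed genes are counted but not reported here by name. Promoter windows are from RefSeq (GRCm38.p6). Alternatives were RLE factors, library totals with and without the rRNA gene, scaling to Rbpms, Slc17a6, Sncg, Nefl, Nefm, Nrn1 and Tubb3, DESeq2 1.42.0, other filters, a replicate block and leaving out libraries. The procedure was tested on simulated counts. Exact permutation tests used SciPy 1.17.1.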

Additional observations from a re-analysis of the deposited data

How the results depend on the processing

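Of 132 fits of a member under an alternative, 114 kept the direction and the side of the threshold, 7 lost a call, none gained one and 11 changed sign. The sign changes were all in members that were not called. Library totals, which shift the median gene to 0.49, gave 0.027 for Pou4f2, 0.089 for Pou4f3, 0.26 for Isl2, 0.41 for Satb1 and 0.11 for Irx3, all below that median, and 0.89 for Pou4f1 and 1.10 for Foxp2, above it. With these totals 0 members and 2 of the listed specification and subset genes were called higher and 0 listed genes lower, against 2, 25 and 16. The count of members higher was 1 with DESeq2 (Pou4f1), 1 with at least 10 counts in every library, where Foxp2 is not tested, 1 with the fold change threshold of 1.5 (Foxp2), and 1 to 2 with 1 library left out. That threshold left 12 listed genes higher and 9 lower. No member was called lower under any alternative run. With 1 library left out, log2 fold changes ran from -0.402 to 0.017 for Isl2, -0.073 to 0.187 for Eomes, -0.037 to 0.498 for Tbr1, -0.143 to 0.009 for Satb1, -0.662 to -0.231 for Pou4f2 and -0.515 to -0.141 for Irx3. Without GFP replicates 2 and 3 together, a setting chosen after seeing the data, which assumes that the remaining GFP library varies as the others do, Pou4f1 was called alone (1 member) and Eomes was at -0.07. With the replicate block, 2 members were called, as without it, and 2675 genes were higher and 2547 lower, against 2525 and 2463. Same-numbered libraries deviated together by correlations of 0.136, 0.051 and 0.0391, each library correlating best with its own number, but the labels state no pairing. Isl2, Tbr1 and Pou4f2, with 6 to 33, 1 to 48 and 10 to 52 counts a library, had the widest intervals of the members.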
